A study of Mus musculus with 12 samples.

Results

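Transcripts of 9 genes of extracellular proteolysis were followed across 12 libraries of splenic myeloid-derived suppressor cells (MDSC): 3 matrix metalloproteinases (Mmp8, Mmp9 and Mmp25), 5 ADAM proteases (Adam8, Adam10, Adam15, Adam17 and Adam19) and 1 tissue inhibitor of metalloproteinases (Timp2). They were chosen by name from 23479 genes in the table, as family members that myeloid cells express, with their levels in these same libraries known. All 9 had a mean normalized count of at least 10, as did 11122 genes of the table. The spleens came from C57BL/6 mice bearing B16 melanomas, and flow cytometry gave 2 populations, the monocytic M-MDSC and the polymorphonuclear PMN-MDSC, which resemble neutrophils. Lymphodepleted mice (LD) had received cyclophosphamide and fludarabine once tumours were established, and spleens were taken 7 days later, while control mice (Ctrl) carried the same tumours and were not treated. The groups were M-MDSC LD, M-MDSC Ctrl, PMN-MDSC LD and PMN-MDSC Ctrl, with 3 libraries each from 3 mice per treatment. Whether an M-MDSC and a PMN-MDSC library with equal numbers share a mouse is not stated, and no group lacked a tumour.

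Matrix metalloproteinases are zinc enzymes that cut collagens, gelatin and many secreted or surface proteins. Neutrophils make collagenase (Mmp8) and gelatinase (Mmp9) late in maturation and store them in granules, and carry the lipid-anchored Mmp25 on their membranes. ADAM proteases are membrane-bound relatives that release the outer part of other surface proteins, and TIMP proteins bind into the active site of metalloproteinases and block it.

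The 8 proteases share a zinc site in which 3 histidines hold the metal and a glutamate takes part in catalysis. The coding bases of that site are shown because the MMP and ADAM proteases have it in common. They were read 5′ to 3′ from GENCODE M21 transcripts (mm10), with capitals for the codons of the glutamate and the 3 histidines.
Mmp8, chr9:7563086-7563118, plus strand, exon 5: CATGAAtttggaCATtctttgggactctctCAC
Mmp9, chr2:164951133-164951165, plus strand, exon 8: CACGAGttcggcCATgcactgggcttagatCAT
Mmp25, chr17:23632843-23632875, minus strand, exon 5: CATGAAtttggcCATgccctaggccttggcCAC
Adam8, chr7:139987893-139987925, minus strand, exon 11: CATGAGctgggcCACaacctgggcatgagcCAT
Adam10, chr9:70754296-70761585, plus strand, exons 9 and 10: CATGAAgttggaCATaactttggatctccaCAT
Adam15, chr3:89344780-89344812, minus strand, exon 11: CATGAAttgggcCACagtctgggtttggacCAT
Adam17, chr12:21336732-21336764, minus strand, exon 12: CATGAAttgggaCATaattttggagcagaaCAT
Adam19, chr11:46125050-46125082, plus strand, exon 11: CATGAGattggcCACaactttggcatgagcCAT
Adam8 and Adam19 had the most similar bases here, at 29 of 33 identical positions. Mmp8 against Adam8, and Adam10 against Mmp9, had the fewest, at 17 of 33. The Adam10 site spans an intron. No such site is given for Timp2, an inhibitor.

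Values are normalized counts, the reads of a gene divided by 1 size factor per library, and are listed for replicates 001, 002 and 003 in that order. Changes are log2 differences ± SE on the scale of log2(normalized count + 1), and a fold change is that difference turned back to a ratio, so that changes of low genes are understated. A gene counts as called where its limma p, Benjamini-Hochberg adjusted over the 11122 genes, was under 0.05. As the genes were picked with results of these libraries in view, their calls describe these libraries and are not independent evidence. The fit treated the 12 libraries as independent. With 3 mice per treatment, the libraries of the 2 populations would come from the same mice. SE and p between populations, and for the difference of the LD changes, take no account of this.

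The recovered totals ran from 8906045 to 16242926 reads per library. Both LD libraries numbered 001 stood apart on the second principal component (4.59% of the variance), at -42.7 for the M-MDSC library and -41.5 for the PMN-MDSC library, against -20.6 to -9.2 in the other 4 LD libraries and 18.7 to 30 in the Ctrl libraries. The labels give a sort purity above 99%. The sum of 5 neutrophil markers (Csf3r, Cxcr2, S100a8, S100a9 and Retnlg, with Ly6g not analysed here) was 38472, 9219.6 and 15498 in M-MDSC LD libraries and 5551, 5968 and 6211 in M-MDSC Ctrl libraries. It was 460113 to 493413 in PMN-MDSC LD and 317909 to 343662 in PMN-MDSC Ctrl, so that its mean in M-MDSC was 4.43% of that in PMN-MDSC under LD and 1.78% under Ctrl. The sum of 6 monocyte markers was 59518 to 78261 in M-MDSC LD and 89344 to 107484 in M-MDSC Ctrl, against 8167 to 9980.5 in PMN-MDSC LD and 9755 to 12056 in PMN-MDSC Ctrl. The sum of 5 cycling markers was 12285, 3672 and 4945 in M-MDSC LD and 1094 to 1342 in M-MDSC Ctrl, and 9576, 1924 and 3037 in PMN-MDSC LD and 2549 to 3387 in PMN-MDSC Ctrl, highest in both LD libraries numbered 001. All 5 of these genes were called with LD in M-MDSC and 0 in PMN-MDSC (limma, with 0 at an unadjusted p under 0.05), and their part in the results was not tested. The 2 population labels matched these neutrophil and monocyte sums. Of the monocyte markers, Fn1, Ccr2, Irf8, F13a1 and Csf1r were higher in M-MDSC under both treatments. Ly6c2 was higher in M-MDSC under Ctrl (log2 difference 1.59 ± 0.16) but was not called under LD (0.15 ± 0.16, limma adjusted p = 0.395). Sums of 5 B cell, 4 NK and 6 erythroid markers did not exceed 128 in any library, and those of 5 T cell markers did not exceed 150.03. Of the erythroid markers 4, all globin genes, had 0 reads in every library, so their sum says little. Sums of 4 eosinophil markers were 490 to 674 in PMN-MDSC LD and 931 to 1218 in PMN-MDSC Ctrl. Those of 5 conventional dendritic markers were 2701 to 4018 in PMN-MDSC LD and 4987 to 5561 in PMN-MDSC Ctrl. The eosinophil sums were mostly Siglec5 (means of 496 in LD and 921 in Ctrl), while Epx and Prg2 did not exceed 1.40 in any PMN-MDSC library. The dendritic sums were mostly Itgax (means of 3334 and 5102). Flt3 was lower in PMN-MDSC (27.7 and 21.6) than in M-MDSC (275 and 310), while Clec9a was higher (81.1 and 97.3 against 23.2 and 13.9). The part of the eosinophil and dendritic sums in the results was not tested.

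Transcripts of the neutrophil proteases were found mainly in PMN-MDSC. In the M-MDSC against PMN-MDSC comparison, Mmp8, Mmp9, Mmp25, Adam8, Adam19 and Timp2 were lower in M-MDSC under both treatments. Adam10, Adam15 and Adam17 lay within a 2-fold range in the 4 groups. Under LD 6 of 9 genes were called, all lower in M-MDSC, where 74.8% of all genes tested were called in either direction. Under Ctrl 9 of 9 were called, 6 lower and 3 higher in M-MDSC, where the share over all genes was 75.6%. The median log2 difference of the 9 was -4.91 under LD and -3.04 under Ctrl, beside 0.0962 and 0.0647 over all genes tested.

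**Figure D1:**
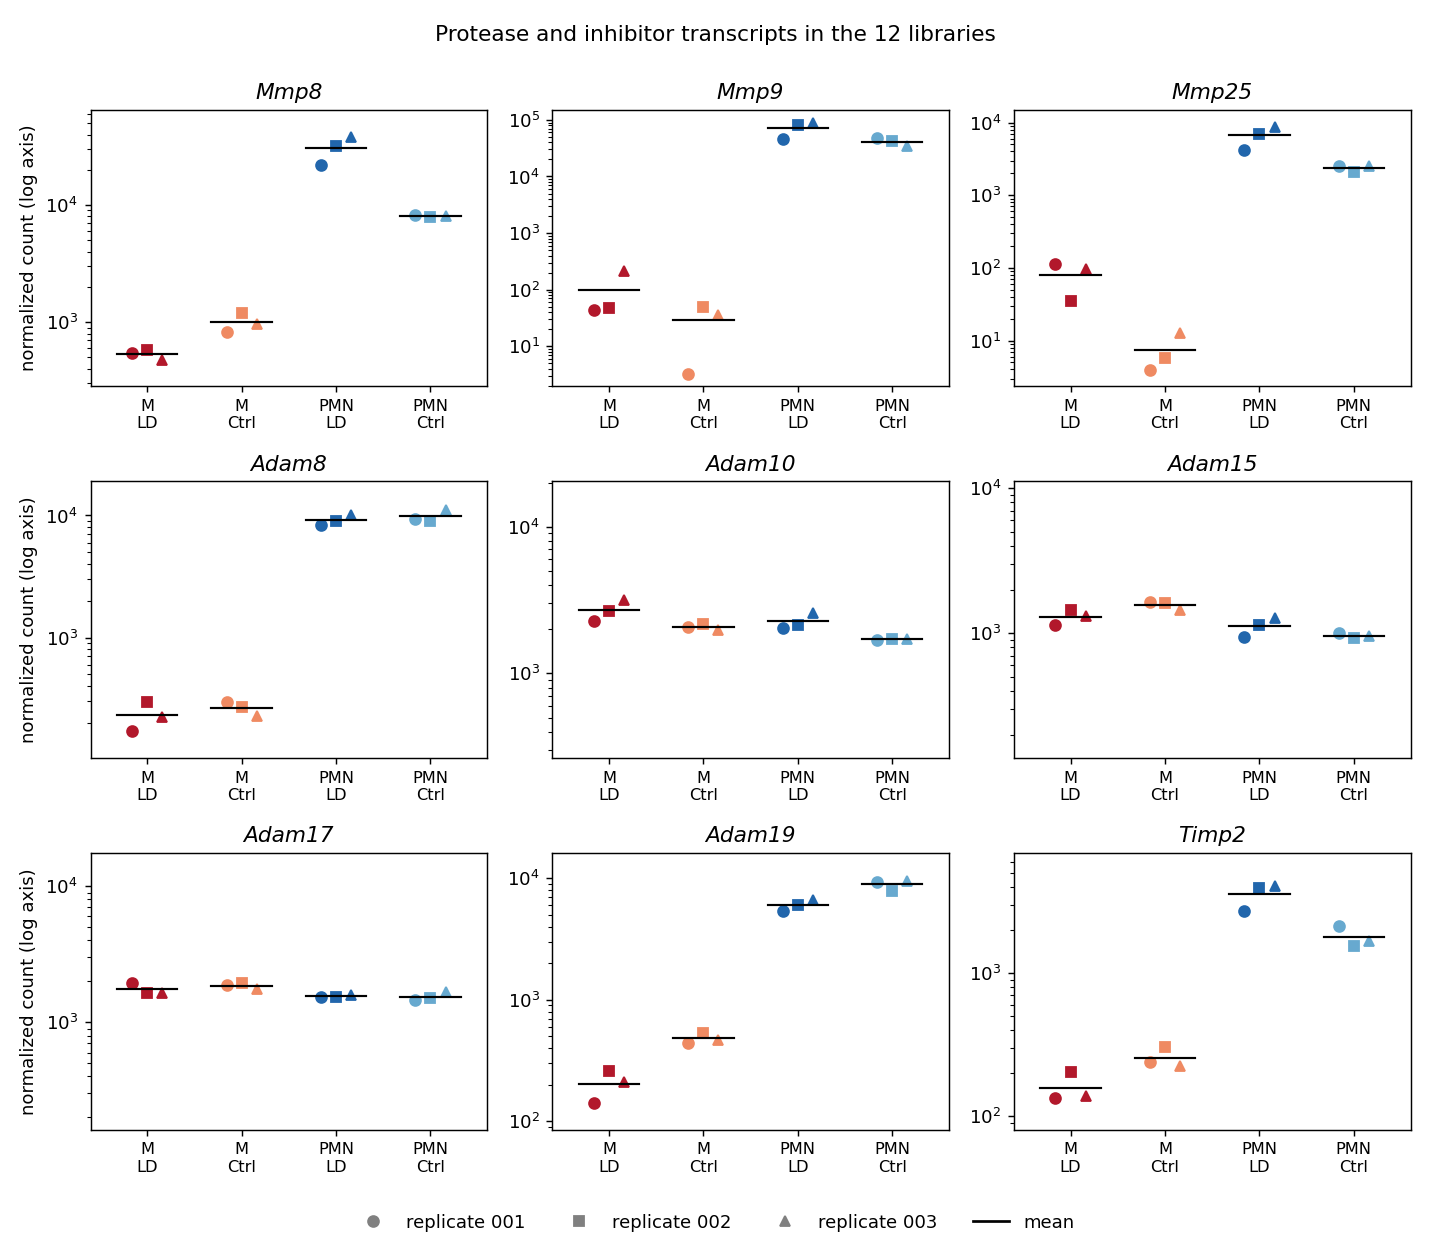
Normalized counts (log axis) of the 9 genes in each library, with M-MDSC LD, M-MDSC Ctrl, PMN-MDSC LD and PMN-MDSC Ctrl from left to right, a symbol per replicate and a line at the mean of 3. The panels of Mmp8, Mmp9, Mmp25, Adam8, Adam19 and Timp2 show PMN-MDSC above M-MDSC, while Adam10, Adam15 and Adam17 stay between 928 and 3182 in all 12 libraries.

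Mmp9 (gelatinase B, chr2:164940780-164955850, plus strand) had the highest level per exon length of the 9 in PMN-MDSC. It had 46468, 80635 and 88433 normalized counts in PMN-MDSC LD, against 47198, 41563 and 34643 in PMN-MDSC Ctrl. The PMN-MDSC groups overlapped, since the LD library numbered 001 lay below the highest Ctrl library. M-MDSC held only traces, with 43.5, 47.5 and 211 in LD and 3.24, 48.8 and 35.3 in Ctrl. The M-MDSC groups also overlapped, and the lowest Ctrl library held 5 reads of the gene. The log2 difference of M-MDSC against PMN-MDSC was -9.81 ± 0.73 under LD (limma adjusted p = 1.5e-08) and -11.01 ± 0.73 under Ctrl (limma adjusted p = 4.08e-09). Single M-MDSC Ctrl libraries moved the Ctrl difference, which was -9.91 without M-MDSC Ctrl 001 and -11.68 without M-MDSC Ctrl 002. Without M-MDSC LD 003, the highest of its group, the LD difference was -10.54. With LD, the change of Mmp9 was 1.96 ± 0.73 in M-MDSC (limma adjusted p = 0.205) and 0.76 ± 0.73 in PMN-MDSC (limma adjusted p = 0.514), so neither was called. The M-MDSC change was 0.86 without M-MDSC Ctrl 001 and 2.63 without M-MDSC Ctrl 002. With PMN-MDSC fitted alone, the PMN-MDSC change passed (limma adjusted p = 0.0471). In the main fit the SE comes from 1 spread shared by the 4 groups, so it is not the spread of PMN-MDSC by itself. The SD of Mmp9 was 94.9% of the mean in M-MDSC LD and 80.4% in M-MDSC Ctrl. It was 31.1% in PMN-MDSC LD and 15.3% in PMN-MDSC Ctrl.

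Mmp8 (neutrophil collagenase, chr9:7558456-7568485, plus strand) changed in opposite directions in the 2 populations. Its normalized counts were 549.8, 577 and 471 in M-MDSC LD and 817, 1209 and 973 in M-MDSC Ctrl. They were 21809, 32009 and 38246 in PMN-MDSC LD and 8291, 7943 and 8066 in PMN-MDSC Ctrl. In each population the LD and Ctrl libraries did not overlap. With LD, Mmp8 fell by 0.89 ± 0.17 on the log2 scale in M-MDSC (limma adjusted p = 0.0104) and rose by 1.88 ± 0.17 in PMN-MDSC, a fold change of 3.69 (limma adjusted p = 4.08e-05). In M-MDSC the change was -0.75 without M-MDSC Ctrl 002 (limma adjusted p = 0.0524) and -0.81 without M-MDSC LD 003 (limma adjusted p = 0.0546), of similar size but no longer past the threshold. The difference between the LD changes, M-MDSC minus PMN-MDSC, was -2.78 ± 0.25 (limma adjusted p = 0.000168). The distance between populations was larger under LD, at -5.81 ± 0.17 for M-MDSC against PMN-MDSC, than under Ctrl, at -3.04 ± 0.17.

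Mmp25 (leukolysin, also called MT6-MMP, chr17:23628311-23645277, minus strand) was higher under LD in both populations. It had 112, 34.8 and 95.6 normalized counts in M-MDSC LD, against 3.89, 5.74 and 12.9 in M-MDSC Ctrl. In PMN-MDSC it had 4197, 6999.9 and 8773 in LD, against 2555, 2063 and 2488 in Ctrl. No LD library overlapped with a Ctrl library of its population. The log2 change was 3.24 ± 0.42 in M-MDSC (limma adjusted p = 0.000678) and 1.43 ± 0.42 in PMN-MDSC (limma adjusted p = 0.032). The M-MDSC change was 2.43 with 8 in place of 1 added before the log. In PMN-MDSC the call was lost without any 1 of Ctrl 001, Ctrl 002, Ctrl 003, LD 002 or LD 003, with limma adjusted p up to 0.117. The difference of the changes was 1.81 ± 0.59 and was not called (limma adjusted p = 0.12), though without M-MDSC LD 002 it was 2.33 (limma adjusted p = 0.0274). M-MDSC held 87.2-fold less Mmp25 than PMN-MDSC under LD and 306-fold less under Ctrl, or -7.30 on the log2 scale under Ctrl with 8 added in place of 1. Within M-MDSC LD, the order of Mmp25 over the libraries (001, then 003, then 002) was also the order of the neutrophil marker sum given above. Mmp8 (002, then 001, then 003) and Mmp9 (003, then 002, then 001) had other orders there. The part of the neutrophil marker sum in the result was not tested.

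The level of each gene in M-MDSC was set against its level in PMN-MDSC, beside the same share for the neutrophil markers. Under LD the M-MDSC mean of Mmp9 was 0.14% of the PMN-MDSC mean, that of Mmp25 1.21% and that of Mmp8 1.74%, all below the 4.43% of the neutrophil marker sum. The markers themselves spread widely, with S100a8 at 5.76%, Csf3r at 4.02%, Cxcr2 at 0.188% and Retnlg at 0.113% under LD. Under Ctrl the neutrophil marker sum stood at 1.78%, Mmp9 at 0.0708% and Mmp25 at 0.317%. Timp2 at 14.3%, Mmp8 at 12.3%, Adam19 at 5.38% and Adam8 at 2.68% lay above the marker sum under Ctrl, while under LD Timp2 at 4.40%, Adam19 at 3.38% and Adam8 at 2.53% lay below it. The LD share of the sum leans on M-MDSC LD 001, with a sum of 38472 beside 9219.6 and 15498 in M-MDSC LD 002 and 003. The places of Timp2, Adam19 and Adam8 below it are therefore uncertain, and Timp2 lay close to it. Single markers also differed, as S100a9 stood at 0.921% under Ctrl and 5.22% under LD, and Csf3r at 2.85% and 4.02%. In bulk RNA, fewer cells of a type and less RNA per cell cannot be told apart.

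**Figure D2:**
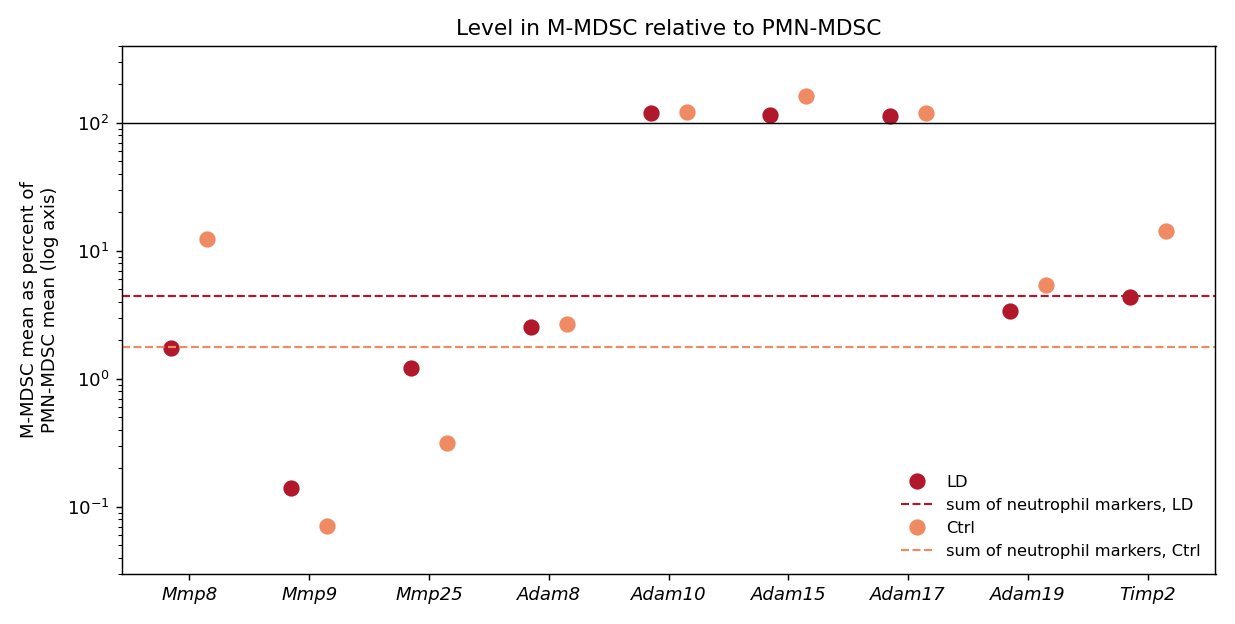
Mean normalized count in M-MDSC as a percent of the mean in PMN-MDSC (log axis) for each gene under LD (dark) and Ctrl (light), with dashed lines at the same percent for the sum of 5 neutrophil markers. Adam10, Adam15 and Adam17 lie above 100%, Mmp9 lies lowest, and Mmp8, Adam8, Adam19 and Timp2 lie above the Ctrl line under Ctrl and below the LD line under LD.

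Adam8 and Adam19, ADAM proteases of leukocytes, were both far higher in PMN-MDSC than in M-MDSC. Adam8 (chr7:139978932-139992562, minus strand) had 172, 299 and 223 normalized counts in M-MDSC LD, against 296, 269 and 228 in M-MDSC Ctrl. In PMN-MDSC it had 8341, 8987 and 10105 in LD, against 9368, 9088 and 11186 in Ctrl. The LD and Ctrl libraries overlapped in both populations, and the changes of -0.22 ± 0.17 and -0.11 ± 0.17 in M-MDSC and PMN-MDSC were not called (limma adjusted p = 0.699 and 0.694). Adam8 was 40.3-fold lower in M-MDSC than in PMN-MDSC under LD and 37.3-fold lower under Ctrl.

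Adam19 (meltrin beta, chr11:46055992-46147343, plus strand) fell with LD in both populations. Its normalized counts were 142, 256 and 209.8 in M-MDSC LD, against 444, 531 and 464 in M-MDSC Ctrl. In PMN-MDSC they were 5367, 6013 and 6594 in LD, against 9357, 7846 and 9533 in Ctrl. Every LD library lay below every Ctrl library of its population. The gene fell by 1.28 ± 0.17 on the log2 scale in M-MDSC (limma adjusted p = 0.000761) and by 0.57 ± 0.17 in PMN-MDSC (limma adjusted p = 0.0335). The PMN-MDSC call was lost without any 1 of Ctrl 001, Ctrl 003, LD 001 or LD 002, with limma adjusted p up to 0.121. The difference between the changes was -0.70 ± 0.24 (limma adjusted p = 0.135), and -0.89 without M-MDSC LD 002 (limma adjusted p = 0.0471). Adam19 was 30.2-fold lower in M-MDSC than in PMN-MDSC under LD and 18.5-fold lower under Ctrl.

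Adam10, Adam15 and Adam17 were found at similar levels in both populations. Adam10, which releases Notch receptors and many other surface proteins (chr9:70678997-70780229, plus strand), had 2278, 2648 and 3182 normalized counts in M-MDSC LD, against 2068, 2188 and 1986 in M-MDSC Ctrl. It had 2053, 2133 and 2593 in PMN-MDSC LD, against 1695, 1717 and 1714 in PMN-MDSC Ctrl. The LD libraries lay above all Ctrl libraries of their population. With LD the change was 0.40 ± 0.12 in PMN-MDSC, a fold change of 1.31 (limma adjusted p = 0.0341), and 0.37 ± 0.12 in M-MDSC (limma adjusted p = 0.121), where it passed without M-MDSC LD 001 (limma adjusted p = 0.0413). The difference between these changes was -0.03 ± 0.17 (limma adjusted p = 0.947), and the PMN-MDSC call was lost without any 1 of Ctrl 001, Ctrl 002, Ctrl 003, LD 002 or LD 003, with limma adjusted p up to 0.132.

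Adam17, the enzyme that releases TNF from the cell surface (chr12:21323509-21373632, minus strand), varied least. It had 1954, 1652 and 1646 normalized counts in M-MDSC LD, against 1877, 1935 and 1772 in M-MDSC Ctrl. PMN-MDSC had 1531, 1534 and 1583 in LD, against 1465, 1516 and 1657 in Ctrl. LD and Ctrl libraries overlapped in both populations, with changes of -0.09 ± 0.09 in M-MDSC and 0.01 ± 0.09 in PMN-MDSC (limma adjusted p = 0.815 and 0.977).

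Adam15 (chr3:89338542-89349996, minus strand) had 1135, 1441 and 1317 normalized counts in M-MDSC LD, against 1653, 1628 and 1443 in M-MDSC Ctrl. It had 940.0, 1138 and 1277 in PMN-MDSC LD, against 1009, 928 and 955 in PMN-MDSC Ctrl. The M-MDSC groups did not overlap and the PMN-MDSC groups did, but neither LD change was called (-0.28 ± 0.12 with limma adjusted p = 0.302 in M-MDSC and 0.20 ± 0.12 with limma adjusted p = 0.266 in PMN-MDSC). Under Ctrl the 3 genes were higher in M-MDSC than in PMN-MDSC, by 0.71 ± 0.12 for Adam15, 0.28 ± 0.12 for Adam10 and 0.27 ± 0.09 for Adam17 (limma adjusted p = 8.61e-05, 0.0391 and 0.0138). The Adam10 call was lost with no minimum mean or without any 1 of the 6 Ctrl libraries (limma adjusted p up to 0.112), and the Adam17 call without PMN-MDSC Ctrl 001 (limma adjusted p = 0.0524). Under LD the differences were 0.22 ± 0.12, 0.25 ± 0.12 and 0.17 ± 0.09, and none was called (limma adjusted p = 0.11, 0.0627 and 0.0959). Adam10 and Adam15 passed without M-MDSC LD 001 (limma adjusted p = 0.00919 and 0.0361) or PMN-MDSC LD 003 (limma adjusted p = 0.016 and 0.0314). All 3 also passed with edgeR's quasi-likelihood test, which uses TMM scaling too (Adam15, Adam10 and Adam17, adjusted p = 0.0245, 0.0129 and 0.0172). With TMM scaling in limma all 3 passed under LD (Adam15, Adam10 and Adam17, limma adjusted p = 0.0293, 0.0185 and 0.0186), and the median of all genes moved to 0.169, against 0.096. Exons of Adam15 overlap those of an antisense gene on 1263 bases and those of Adam17 overlap Iah1 on 311, and whether counting used strand is not stated.

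Timp2 (chr11:118301069-118355740, minus strand), an inhibitor that also takes part in activating the gelatinase Mmp2 at the cell surface, had higher levels in LD in PMN-MDSC. Its normalized counts were 134, 202 and 138 in M-MDSC LD, against 239.9, 303 and 223 in M-MDSC Ctrl. They were 2716, 3974 and 4093 in PMN-MDSC LD, against 2138, 1543 and 1689 in PMN-MDSC Ctrl. The LD libraries lay below the Ctrl libraries in M-MDSC and above them in PMN-MDSC, with no overlap. Timp2 rose by 0.996 ± 0.19 in PMN-MDSC, a fold change of 1.99 (limma adjusted p = 0.00436). The change of -0.70 ± 0.19 in M-MDSC was not called (limma adjusted p = 0.0676), but passed with TMM scaling (limma adjusted p = 0.0498), with DESeq2 (adjusted p = 0.0214), and without M-MDSC LD 002 or PMN-MDSC LD 001 (limma adjusted p = 0.0173 and 0.0281). The LD changes differed by -1.70 ± 0.27, M-MDSC minus PMN-MDSC (limma adjusted p = 0.00821). Timp2 was 22.6-fold lower in M-MDSC than in PMN-MDSC under LD and 6.98-fold lower under Ctrl.

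Over the 9 genes, LD against Ctrl in M-MDSC gave 1 higher call (Mmp25) and 2 lower calls (Mmp8 and Adam19), where 3.01% of all genes tested were called. In PMN-MDSC it gave 4 higher calls (Mmp8, Mmp25, Adam10 and Timp2) and 1 lower call (Adam19), where 15.7% of all genes tested were called. The median change of the 9 was -0.22 in M-MDSC and 0.40 in PMN-MDSC, beside -0.04 and -0.05 over all genes tested. The LD changes of the 2 populations differed for 2 of 9 genes (Mmp8 and Timp2), where 2.25% of all genes tested were called. Without both LD libraries numbered 001, the calls came to 4 in M-MDSC, 6 in PMN-MDSC and 3 for the difference, with Adam10 added in M-MDSC and Adam15 added in PMN-MDSC and for the difference. With no minimum mean, 2 of 9 were called in PMN-MDSC, and Mmp25, Adam10 and Adam19 no longer passed. The PMN-MDSC count was also 2 without Ctrl 001, Ctrl 003 or LD 002 of that population, and 3 without Ctrl 002 or LD 003. The count for the difference was 4 without M-MDSC LD 002 and 3 without PMN-MDSC LD 001. Counts over all genes tested moved too. The difference called 773 of all genes without both LD libraries numbered 001 and 832 without PMN-MDSC LD 001, against 250 in the main fit. LD in PMN-MDSC called 1101 of all genes without PMN-MDSC Ctrl 002 and 890 without PMN-MDSC Ctrl 003, against 1745 in the main fit.

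**Figure D3:**
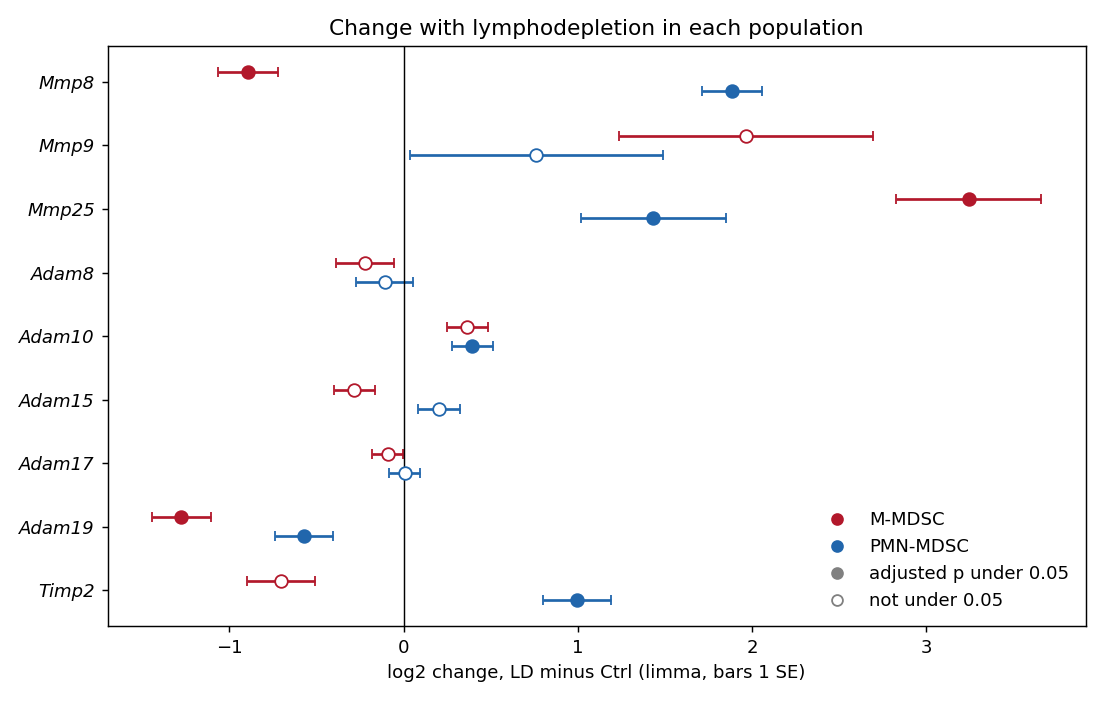
Log2 change with lymphodepletion (LD minus Ctrl, limma, bars 1 SE) for each gene in M-MDSC and PMN-MDSC, filled where the adjusted p was under 0.05. Mmp8 and Timp2 lie on opposite sides of 0 in the 2 populations, Mmp25 lies right of 0 in both and Adam19 left of 0 in both.

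Per kilobase of exon, which adjusts levels of different genes for length, the order of the genes differed between the populations. The length is that of all annotated exons of a gene merged. It may differ from that of the transcript expressed, so close ranks are uncertain. In M-MDSC LD, Adam10 came first at 550.1 ± 92.5 normalized counts per kb (SD, n = 3), followed by Adam17 at 245 ± 24.7, Mmp8 at 219.6 ± 22.7 and Adam15 at 211 ± 25.0, and these last 3 overlapped over their libraries. In M-MDSC Ctrl, Adam10 at 424 ± 20.7 and Mmp8 at 412 ± 81.2 overlapped. Mmp25 was the lowest of the 9 in M-MDSC, at 15.2 ± 7.64 in LD and 1.42 ± 0.90 in Ctrl, and overlapped with Mmp9 in both groups. In PMN-MDSC LD, Mmp9 at 20301 ± 6307 and Mmp8 at 12655 ± 3422 came first and overlapped. In PMN-MDSC Ctrl, Mmp9 at 11623 ± 1777 lay clear of Mmp8 at 3340.2 ± 72.9. Adam8 came next in both PMN-MDSC groups, at 1972 ± 192 in LD and 2130.4 ± 246 in Ctrl, and Adam17 and Adam15 ranked last.

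**Figure D4:**
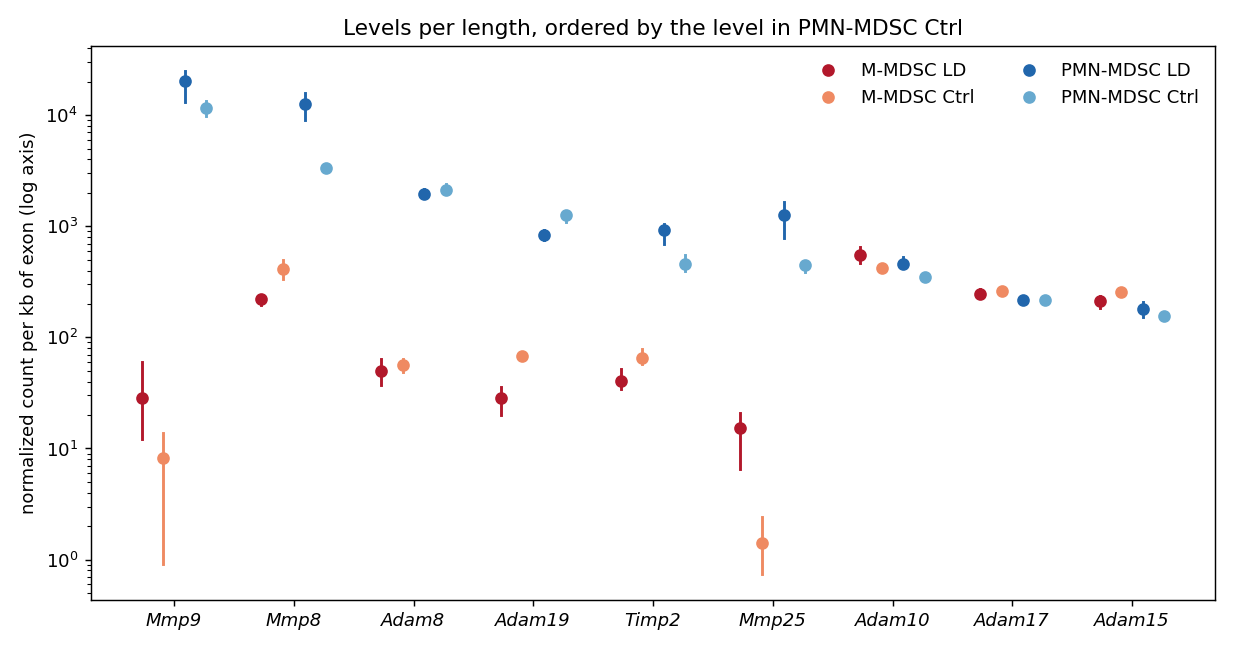
Normalized count per kb of exon (log axis) in M-MDSC LD, M-MDSC Ctrl, PMN-MDSC LD and PMN-MDSC Ctrl, with the mean as a point and the range of 3 libraries as a line. Genes from Mmp9 to Mmp25 separate the populations, while Adam10, Adam17 and Adam15 lie between 157 and 550.1 in all 4 groups.

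Promoters are shown for the 3 genes that rose in PMN-MDSC by the largest folds and for Adam19, which fell. Each window holds 250 bases before to 50 after a RefSeq start (GRCm38.p6), and for Adam19 the start nearest to the GENCODE gene start was taken. A promoter was matched for 8 of the 9 genes. Capitals mark matches, on either strand, to TTGCNNAA (a C/EBP motif), GAGGAA (an ETS motif of the PU.1 type) or TGANTCA (AP-1).
Mmp8, chr9:7558179-7558478, plus strand: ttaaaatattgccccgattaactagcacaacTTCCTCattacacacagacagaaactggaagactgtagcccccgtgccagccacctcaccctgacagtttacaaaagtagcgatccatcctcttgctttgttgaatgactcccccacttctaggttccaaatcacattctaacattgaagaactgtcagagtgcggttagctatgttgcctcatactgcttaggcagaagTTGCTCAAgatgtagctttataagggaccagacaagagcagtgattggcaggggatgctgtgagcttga
Mmp25, chr17:23645220-23645519, minus strand: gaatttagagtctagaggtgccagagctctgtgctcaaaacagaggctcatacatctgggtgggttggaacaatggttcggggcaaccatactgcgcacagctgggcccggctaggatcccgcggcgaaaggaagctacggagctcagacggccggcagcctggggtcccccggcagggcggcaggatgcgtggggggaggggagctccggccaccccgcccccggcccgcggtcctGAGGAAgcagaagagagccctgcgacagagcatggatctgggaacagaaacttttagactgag
Timp2, chr11:118355362-118355661, minus strand: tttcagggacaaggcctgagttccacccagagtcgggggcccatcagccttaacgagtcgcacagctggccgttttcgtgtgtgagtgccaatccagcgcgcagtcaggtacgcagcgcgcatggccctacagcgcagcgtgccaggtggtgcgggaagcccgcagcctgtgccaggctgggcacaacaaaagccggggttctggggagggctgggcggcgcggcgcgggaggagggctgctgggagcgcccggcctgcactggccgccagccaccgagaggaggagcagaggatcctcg
Adam19, chr11:46055734-46056033, plus strand: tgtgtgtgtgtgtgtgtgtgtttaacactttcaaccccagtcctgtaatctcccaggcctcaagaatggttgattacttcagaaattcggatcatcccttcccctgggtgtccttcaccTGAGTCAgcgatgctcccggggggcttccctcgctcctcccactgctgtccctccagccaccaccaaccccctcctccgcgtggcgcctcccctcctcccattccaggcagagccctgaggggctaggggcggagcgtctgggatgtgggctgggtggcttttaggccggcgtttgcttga
TTGCNNAA was found in the Mmp8 window alone of these 4, beginning 19 bases before the start, and among 32851 promoters 10.8% hold it. Of the windows not shown, those of Adam8 and Adam15 held it too. GAGGAA was found in the Mmp8 and Mmp25 windows and in 28.3% of all promoters. TGANTCA was found in the Adam19 window and in 7.8% of all promoters. GGGCGG (a GC box) was found in the Mmp25, Timp2 and Adam19 windows and in 35.7% of all promoters. TATAAA was found in the Mmp8 window only on the other strand, as TTTATA beginning 3 bases before the start. On either strand, 13.6% of all promoters hold it. In these 4 windows no match overlapped another. The Mmp8 and Timp2 windows shared no match.

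Most of the remaining family members lay below the minimum level. Of 20 other MMP genes in the table, 4 passed the minimum mean of 10, and of 29 other ADAM genes and 19 ADAMTS genes 6 and 3 did. The median log2 difference of the 4 MMP genes was 3.14 for M-MDSC against PMN-MDSC under LD and 3.22 under Ctrl. Mmp19, a secreted MMP, was 31.5-fold higher in M-MDSC under LD (289 ± 28.7 against 9.82 ± 6.27, SD, n = 3) and 26.5-fold higher under Ctrl (487 ± 71.0 against 17.4 ± 2.02). Mmp14 (MT1-MMP), a membrane-anchored collagenase, read 321, 190.2 and 103 in M-MDSC LD, against 37.0, 45.0 and 37.6 in M-MDSC Ctrl, which did not overlap but was not called (log2 change 2.19 ± 0.79, limma adjusted p = 0.19). By limma no gene of the 4 was called with LD in either population, with 1 at an unadjusted p under 0.05 in each. Adam9, another widely expressed ADAM, was higher in M-MDSC than in PMN-MDSC, with log2 differences of 1.41 ± 0.16 under LD and 1.49 ± 0.16 under Ctrl.

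Of the 6 other ADAM genes tested, 1 was called by limma with LD in M-MDSC, beside 3.01% of all genes, and none in PMN-MDSC, where 0 had an unadjusted p under 0.05. This gene, named after its values were seen, was Adamdec1, a secreted ADAM relative of macrophages and dendritic cells, with 39.8, 56.0 and 50.2 normalized counts in M-MDSC LD and 4.54, 1.91 and 0.561 in M-MDSC Ctrl (log2 change 4.07 ± 0.81, limma adjusted p = 0.0118). The sum of 5 macrophage markers was 293 to 361 in M-MDSC LD and 60.6 to 129 in M-MDSC Ctrl, and its part in the result was not tested. The 3 ADAMTS genes were not called by limma with LD in either population, and 0 had an unadjusted p under 0.05.

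The other inhibitors and activators held 14 genes, of which 6 were tested. Timp1, Timp3 and Timp4 did not exceed 7.03 normalized counts in any library, so Timp2 was the TIMP transcript found at a level that could be tested. With LD, 2 of 6 rose in PMN-MDSC, where 15.7% of all genes tested were called, and none was called by limma in M-MDSC, where 2 had an unadjusted p under 0.05. Plau, the plasmin activator urokinase, had 403, 381 and 599 normalized counts in PMN-MDSC LD, against 97.9, 157 and 137 in PMN-MDSC Ctrl (log2 change 1.81 ± 0.23, limma adjusted p = 0.000338). Plaur, its receptor, rose by 0.58 ± 0.12 in PMN-MDSC (limma adjusted p = 0.00653). Furin, a convertase that cuts the propeptide off Mmp25 and several ADAM proteins, was lower in M-MDSC than in PMN-MDSC, by -1.62 ± 0.09 under LD and -1.81 ± 0.09 under Ctrl. Reck, a membrane-anchored MMP inhibitor, was likewise lower in M-MDSC, by -4.58 ± 0.61 under LD and -4.05 ± 0.61 under Ctrl.

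Genes of neutrophil granules, in which Mmp8 and Mmp9 are stored, were examined beside them. Of 16 granule neighbours tested, 7 rose and 1 fell with LD in PMN-MDSC, with a median of 0.75 beside -0.05 over all genes, of which 15.7% were called. Cybb, the NADPH oxidase subunit of granule membranes, rose by 1.202 ± 0.14 and Cd177 by 1.53 ± 0.23 in PMN-MDSC (limma adjusted p = 0.000126 and 0.000877). Of the same 16, 5 rose in M-MDSC and none fell, with a median of 0.26, where 3.01% of all genes tested were called. These were Ltf, Camp, Ngp, Lcn2 and Olfm4, and Ltf (lactoferrin) had 15333, 3295 and 7618 normalized counts in M-MDSC LD, against 516, 686 and 656 in M-MDSC Ctrl. Mmp8 thus fell in M-MDSC libraries in which Ltf rose by 3.56 ± 0.37 (limma adjusted p = 0.000158). The M-MDSC LD library numbered 001 held the most Ltf, the largest neutrophil marker sum and the largest sum of 6 progenitor markers (7248.5, beside 1567 and 1949.6 in the other two and 219 to 265 in M-MDSC Ctrl), and the part of these in the result was not tested.

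Cofactors and targets of the sheddases were examined last. Of 9 sheddase partners tested, 2 rose with LD in PMN-MDSC, where 15.7% of all genes tested were called (P4hb, a disulfide isomerase, by 0.47 ± 0.12 and Tspan5, a tetraspanin that carries Adam10, by 0.47 ± 0.15) and none was called by limma in M-MDSC, where 1 had an unadjusted p under 0.05. Rhbdf2 (iRhom2), which brings Adam17 to the cell surface in leukocytes, was lower in M-MDSC than in PMN-MDSC, by -1.81 ± 0.12 under LD and -1.98 ± 0.12 under Ctrl. Of 24 shed substrates tested, 3 rose in M-MDSC with LD (Tnf, Cd74 and Spn), with a median of -0.01 over the list, where 3.01% of all genes tested were called in either direction. Tnf, which Adam17 releases, had normalized counts of 315, 206 and 235 in M-MDSC LD, against 138, 138 and 103 in M-MDSC Ctrl (log2 change 0.98 ± 0.21, limma adjusted p = 0.0167). In PMN-MDSC 3 rose (Spn, App and Jag1) and 2 fell (Tnfrsf1b and Csf1r), with a median of -0.14. The called count was 5 of 24, beside 15.7% of all genes tested. Of the 24, the LD changes of App, Tnfrsf1b and Csf1r differed between the populations, where 2.25% of all genes tested were called. Tnfrsf1b, which encodes TNF receptor 2, fell by 0.46 ± 0.10 in PMN-MDSC (limma adjusted p = 0.00594). Of 6 matrix genes tested, 1 fell in each population, where 3.01% of all genes tested were called in M-MDSC and 15.7% in PMN-MDSC. Thbs1 (thrombospondin 1) fell by 2.24 ± 0.36 in M-MDSC and Fn1 (fibronectin) by 0.79 ± 0.24 in PMN-MDSC (limma adjusted p = 0.00302 and 0.0386).

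Genes with the pattern most like each member over the 12 libraries were found by Pearson's r of log2(normalized count + 1) among 7287 genes with a mean of at least 100. The nearest to Mmp8 was Timp2 (r = 0.991), and the nearest to Mmp9, Mmp25, Adam8 and Adam19 were Dab2ip, Actn1, Ndel1 and Gsr (r of 0.996, 0.996, 0.998 and 0.995). The second nearest to Mmp25 was Olfm4 (r = 0.996), a neutrophil granule protein. Adam10, Adam15 and Adam17 had weaker partners, Psme1, Ttc33 and Prkci (r of 0.902, 0.950 and 0.944). Across the 9 genes, r was 0.84 or more among the 6 that were lower in M-MDSC and ran from 0.21 to 0.67 among Adam10, Adam15 and Adam17. These libraries share 2 populations, so that any gene that separates them correlates with the others.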

How the data were processed

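Total RNA from sorted M-MDSC and PMN-MDSC was sequenced after ribosomal RNA depletion, per the labels' protocols. For 12 samples the authors deposited a table with 23479 genes, whose unit is a signal: normalized counts, in which each value is a whole multiple of 1 step per sample (100% within 0.001 reads), so that whole reads were recovered. The submitters' processing notes name the build mm10 and the tools HTSeq 0.6.1, STAR 2.5.3a and DESeq2, with no roles. Whether counting used strand is not stated.

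Changes were tested with limma 3.58.1 (R 4.3.3) on log2(normalized count + 1), for genes with a mean of at least 10, with 4 group means, a trend, 8 residual degrees of freedom, two-sided p and Benjamini-Hochberg adjustment over 11122 genes. The step was tested on simulated data. edgeR 4.0.16 (quasi-likelihood) and DESeq2 1.42.0 on recovered reads, other pseudocounts (0.5 and 8), other minimum means, TMM scaling, a replicate block, each population fitted alone and each library left out were alternatives, and leaving out both LD libraries numbered 001 was added after seeing the data. Lengths and coordinates are from GENCODE M21 (mm10), promoters from RefSeq (GRCm38.p6). Reads carry no molecular identifiers.

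The members and gene lists were chosen with earlier results of these data known. In lists, up to 4 called genes per comparison with the smallest adjusted p and a mean of at least 50 were eligible to be named, or 2 as values where none was called. Adamdec1, Olfm4, Jag1, Thbs1 and Fn1 fall outside that rule and were named after their values were seen. Tables were handled in Python 3.11.15 (pandas 2.3.3) and plotted with matplotlib 3.10.9.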

Additional observations from a re-analysis of the deposited data

Results flagged for a closer look

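The LD changes of 2 genes differed between the populations by the test of the difference itself. For Mmp8 the change in M-MDSC minus that in PMN-MDSC was -2.78 ± 0.25 on the log2 scale (limma adjusted p = 0.000168), and it stayed between -3.03 and -2.60 in 22 alternatives. For Timp2 it was -1.70 ± 0.27 (limma adjusted p = 0.00821), between -1.89 and -1.57 in 22 alternatives. In both, LD libraries lay below Ctrl libraries in M-MDSC (3 of 3) and above them in PMN-MDSC (3 of 3).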

How the results depend on the processing

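Over the 9 genes and 5 comparisons, 927 values under an alternative kept their direction and side of the threshold, 27 lost a call, 25 gained one and 11 changed sign. The count of genes called with LD in PMN-MDSC was 5 in the main fit, 2 with no minimum mean and 2 to 5 with 1 library left out. The count for the difference of the LD changes was 2, and 2 to 4 with 1 library left out. Sign changes were in values near 0 that were not called: Adam17 with LD in PMN-MDSC (-0.028 with edgeR, -0.033 to 0.056 with 1 library left out), and for the difference Adam10 (0.034 with edgeR, 0.021 without both LD 001 libraries, -0.155 to 0.086 with 1 library left out) and Adam8 (0.019 without both, -0.315 to 0.083 with 1 left out). Over all genes tested, LD in M-MDSC called 335 genes, 723 with DESeq2 and 192 to 549 with 1 library left out, LD in PMN-MDSC 1745 and as few as 890, and the difference 250, 125 with no minimum mean, 692 with DESeq2, 773 without both LD 001 libraries and 113 to 832 with 1 left out. The cause was not tested.

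The labels do not pair the libraries by number. Deviations from group means of same-numbered libraries correlated at 0.208, 0.125 and 0.068 between populations under LD, where every library correlated best with its own number (a hint from the data, not the design), at -0.037, 0.054 and 0.135 under Ctrl, where not every library did, and at -0.102 to 0.023 between LD and Ctrl libraries. With the replicate number as a replicate block, Adam10 passed for M-MDSC against PMN-MDSC under LD (limma adjusted p = 0.0497, and 0.0147 with a replicate block by presumed animal), and the block by presumed animal called 536 genes for the difference. Mmp9 and Mmp25 in M-MDSC Ctrl rest on 5 to 63 and 6 to 23 reads per library, which limits their folds.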
